A study of Mus musculus with 10 samples.

Results

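The cytosolic ribosomal protein genes are the genes for the proteins that, with ribosomal RNA, build the large and the small subunit of the ribosome. Members were chosen by name: protein-coding mouse genes whose symbol is Rpl or Rps followed by digits and at most 1 letter, together with Rplp0, Rplp1, Rplp2 and Rpsa. This rule found 79 genes, 48 of the large and 31 of the small subunit, among the 33585 genes of the tables. The rule leaves out genes such as Rps3a1 and Fau, which also encode ribosomal proteins under other kinds of symbol, and it takes in the paralogs Rpl3l, Rpl39l and Rps27l. Their mRNA was measured by bulk RNA-seq of tumor-draining lymph nodes (TDLNs) from 10 mice, 1 library a mouse, as FPKM, the fragments per length of transcript and number of mapped fragments.

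The mice were female BALB/c animals, 6 weeks old at the start, that carried 4T1 tumors, a mouse mammary carcinoma line, in a mammary fat pad. All tumors were treated by microwave ablation (MWA), a local treatment that destroys tumor tissue by heat, on day 10. The 5 mice of the MWA+2DG group then received 2-deoxy-D-glucose (2DG), a glucose analog that blocks glycolysis, at 500 mg/kg every 2 days, and the 5 mice of the MWA group received the vehicle, PBS, according to the methods of the study. Nodes were taken on day 15. No node without ablation was among the samples, so the comparison was between 2DG and vehicle after ablation.

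A ribosome carries 1 copy of nearly every one of these proteins, and the mRNAs that encode them are among the most abundant of a growing cell. Most of these mRNAs begin with a C followed by a run of pyrimidines, the terminal oligopyrimidine (TOP) tract, through which the kinase mTORC1, a sensor of nutrients and energy, controls their translation. Lymphocytes make more ribosomes when they are activated and grow. TOP control acts on translation, whereas the values here are mRNA levels.

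The annotated starts of most members found did not begin with such a tract. In RefSeq windows of 300 bases around annotated starts (GRCm38.p6, 250 before and 50 from the start), 59 of the 79 members were found. The start base and the bases after it were a C and at least 4 more C or T in 13 of 59 members (22.0%), against 800 of 26966 other genes (2.97%). CCGGAAG, a core that ETS family factors bind, was present on either strand of 25 members (42.4%; 9.86% of other genes), AAGATGG, the core of YY1 sites, of 9 (15.3%; 7.26%), and TATAAA of 6 (10.2%; 15.7%). A sequence match does not show that a factor binds, and an annotated start can differ from the one used. In the lines that follow, 6 starts chosen from those 13 are shown to let the tracts be compared, each with 8 bases before the start, on the strand of the gene, with the pyrimidine run from the start base in capitals.
Rpl15 (chr14:18270967-18270994, minus strand): aaagccttCTTCCTTTCCTCTggcggca
Rps6 (chr4:86857348-86857375, minus strand): agtcgggcCTCTTTTTCgtgacgcctcc
Rps18 (chr17:33955646-33955673, minus strand): cttccgctCTCTCTTCCacaggaggcct
Rpl35a (chr16:33056474-33056501, plus strand): ttgccttcCTCTTTCCgccatcttggcg
Rps27 (chr3:90213629-90213656, minus strand): ctttcgctCCTTTCCggcggtgacgacc
Rplp2 (chr7:141447643-141447670, plus strand): gcgtcttcCTTTCgccgccggacgccgc
The run was 13 bases in Rpl15, 9 in Rps6 and Rps18, 8 in Rpl35a, 7 in Rps27 and 5 in Rplp2.

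No read counts were used, so the depth of the libraries is unknown and no counting error can be given. Between 24289 and 25184 genes had a value above 0 in a library, and the summed FPKM of a library was 312143 to 359984. Of the 13334 genes that averaged 1 FPKM or more over the 10 mice, 567 (4.25%) differed between MWA+2DG and MWA at an unadjusted P below 0.05 in limma on log2(FPKM + 1), and 376 (2.82%) also passed a log2 fold change of 0.25 in size, the rule of the study. None passed after Benjamini-Hochberg adjustment (smallest adjusted p = 0.995). Liver marker mRNAs (7 of 7 markers found, none at 0 in all mice) summed to 29.1 to 34.4 FPKM in the mice numbered 1 and 2 of either group and to 90.6 to 203 FPKM in those numbered 3 to 5. All 9 T cell and all 7 B cell markers listed for the labelled tissue were found, with sums of 415 to 680 and 1324 to 1608 FPKM. Some markers of other cells differed between the groups by the rule of the study. Lower in MWA+2DG were 5 of 8 markers of dividing cells (all 8 below 0, median log2 fold change -0.34, sums of 126 to 174 FPKM in MWA and 87.7 to 141 FPKM in MWA+2DG), 2 of the 3 tested of 6 neutrophil markers (sums of 13.5 to 75.2 and 3.28 to 21.7 FPKM), 2 of the 6 tested of 7 plasma cell markers (sums of 320 to 821 and 244 to 505 FPKM) and 1 of 7 macrophage markers (sums of 176 to 258 and 156 to 204 FPKM). All 9 T cell markers had log2 fold changes above 0 (median 0.15) and all 7 B cell markers below 0 (median -0.069), with 0 passing the rule. No marker of these lists was at 0 in all mice, none passed after adjustment, and their part in the values of the ribosomal protein genes was not tested.

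No ribosomal protein gene differed between MWA+2DG and MWA beyond the spread between mice. Of the 77 members that passed the filter on low values, 46 of the large and 31 of the small subunit, 0 passed the rule of the study in either direction (0.952% of all tested genes were higher and 1.87% lower by it), and 0 had an unadjusted P below 0.05. The other 2 members, Rpl3l and Rpl39l, were at 0.632 FPKM or less in every mouse and were not tested. In no tested member did the 5 values of the groups lie apart, against 0.802% of all tested genes. The median log2 fold change of MWA+2DG over MWA was -0.051 for the large subunit, with 39 of 46 genes below 0, and -0.048 for the small subunit, with 25 of 31 below 0. Across all tested genes the median was 0.0074 and 47.4% were below 0. For other protein-coding genes it was -0.031 with transcripts under 750 bases and 0.047 with those of 3000 bases or more. The sign of the medians of both subunits depended on the scaling. When every library was rescaled to a total of 1000000 the large and small subunit medians were 0.013 and 0.016, with 27 of 46 and 20 of 31 genes above 0. After quantile normalization both were 0.032. With the ribosomal protein genes left out of the rescaled total they were 0.012 and 0.015. Without MWA replicate 5 they were 0.060 and 0.053, and without MWA replicate 1 0.0046 and 0.014. Without MWA+2DG replicate 1 they were -0.0040 and -0.023, with 22 of 46 and 12 of 31 genes above 0. In bulk tissue, fewer cells that express a gene and less RNA per cell cannot be told apart.

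**Figure D1:**
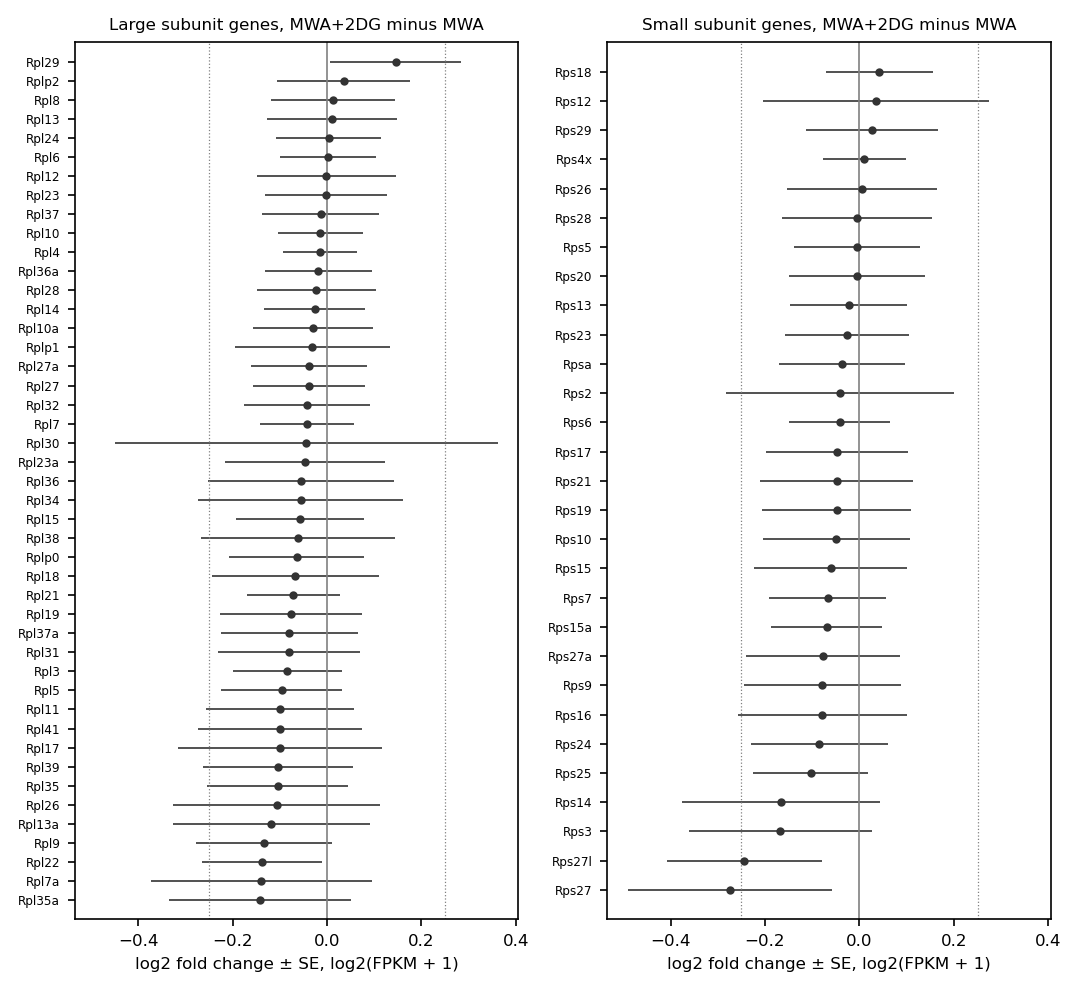
Log2 fold change (MWA+2DG minus MWA, on log2(FPKM + 1)) of 45 large and 29 small subunit genes, points with SE, sorted by value, with dotted lines at 0.25 and -0.25. All but Rps27 lie inside the dotted lines, most error bars cross 0, and 39 of 45 and 24 of 29 genes are below 0. Over all tested genes of the subunits this direction turned to 27 of 46 and 20 of 31 above 0 when libraries were rescaled to 1000000.

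Among large subunit genes the lowest fold changes belonged to Rpl35a, Rpl7a, Rpl22 and Rpl9. Rpl22, whose protein also binds other RNAs and is needed by developing αβ T cells, was at 123, 105, 87.3, 90.4 and 137 FPKM in MWA replicates 1 to 5 and at 90.3, 110, 101, 93.8 and 91.9 FPKM in MWA+2DG replicates 1 to 5. The MWA mice held both the highest and the lowest values and the groups overlapped. Its log2 fold change was -0.14 (SE 0.13; limma, adjusted p = 0.995), with the smallest unadjusted P of the subunit. Rpl9 was at 304 ± 74.95 FPKM (SD, n = 5) in MWA and 271 ± 16.6 FPKM (SD, n = 5) in MWA+2DG, a log2 fold change of -0.13 (SE 0.14). Rpl7a was at 272, 193, 216, 174 and 449 FPKM in the MWA mice, with replicate 5 far above the rest, and at 183 to 274 FPKM in the MWA+2DG mice, a log2 fold change of -0.14 (SE 0.23). Rpl35a was a low gene, at 16.5 ± 5.12 and 14.4 ± 2.12 FPKM (SD, n = 5), with a log2 fold change of -0.14 (SE 0.19). Among the highest log2 fold changes were 0.15 (SE 0.14) for Rpl29, at 3.99 ± 0.977 and 4.49 ± 0.767 FPKM (SD, n = 5), 0.035 (SE 0.14) for Rplp2 and 0.013 (SE 0.13) for Rpl8.

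The stalk of the large subunit, which recruits the GTPases of translation, is built from the products of Rplp0, Rplp1 and Rplp2. Rplp1 was the most abundant member at 2732, 2261, 1935, 1648 and 3253 FPKM in MWA replicates 1 to 5 and at 2005, 2324, 2416, 2350 and 2171 FPKM in MWA+2DG replicates 1 to 5. The 5 MWA+2DG mice lay within the range of the MWA mice, and the log2 fold change was -0.032 (SE 0.16; limma, adjusted p = 0.996). Rplp0 was at 815 ± 184 and 770 ± 92.7 FPKM and Rplp2 at 314 ± 57.8 and 320 ± 45.3 FPKM (SD, n = 5 each). Rpl5 and Rpl11, whose proteins bind and inhibit Mdm2 when ribosome assembly is disturbed, had log2 fold changes of -0.096 (SE 0.13) and -0.099 (SE 0.16). Rpl11 was at 308, 274, 225, 209 and 405 FPKM in MWA and at 248, 273, 263, 252 and 255 FPKM in MWA+2DG, again with the wider range in the MWA mice. Rpl3 and Rpl4, early binding proteins of the large subunit, were at -0.084 (SE 0.12) and -0.014 (SE 0.078), and Rpl10, which is added late in the cytoplasm, at -0.014 (SE 0.090). Rpl10a was at -0.030 (SE 0.13), and Rpl38, required for translation of a subset of mRNAs in the embryo, at -0.061 (SE 0.21).

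In the small subunit the lowest log2 fold changes were those of Rps27 (-0.27, SE 0.22), Rps27l (-0.24, SE 0.16), Rps3 (-0.17, SE 0.19) and Rps14 (-0.17, SE 0.21), and each adjusted p from limma was 0.995. Rps27l, a p53-induced paralog of Rps27, was at 56.3, 47.5, 46.7, 44.0 and 86.7 FPKM in the MWA mice and at 42.5, 45.6, 46.5, 51.2 and 43.9 FPKM in the MWA+2DG mice. MWA replicate 5 stood above all other mice, and the log2 fold change was -0.078 without it. The exact permutation test, two-sided over 252 splits of the mice, gave p = 0.190 for Rps27l and p = 0.254 for Rps27, where the smallest p it can give is 0.00794. Rps3, which lines the mRNA entry channel, was at 441, 379, 276, 259 and 560 FPKM in MWA and at 340, 376, 315, 315 and 294 FPKM in MWA+2DG. Its log2 fold change was -0.015 without MWA replicate 5. Rps14, whose haploinsufficiency causes an anemia in humans, was at 426 ± 154 and 361 ± 24.3 FPKM (SD, n = 5), and its log2 fold change was 0.0040 without that mouse. The highest values were 0.042 (SE 0.11) for Rps18, 0.035 (SE 0.24) for Rps12, 0.026 (SE 0.14) for Rps29 and 0.011 (SE 0.089) for Rps4x.

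Rps6, the ribosomal protein that is phosphorylated downstream of mTORC1, was at 1077, 933, 765, 765 and 1048 FPKM in MWA replicates 1 to 5 and at 865, 926, 895, 860 and 865 FPKM in MWA+2DG replicates 1 to 5. Its log2 fold change was -0.042 (SE 0.11; exact permutation p = 0.675), and phosphorylation was not measured here. Rps19, the gene most often mutated in Diamond-Blackfan anemia, was at -0.048 (SE 0.16), Rpsa, also known as the laminin receptor, at -0.037 (SE 0.13), and Rps27a, which encodes ubiquitin fused to a small subunit protein, at -0.077 (SE 0.16). Genes that the naming rule leaves out lay in the same range: Rps3a1 was at 1247 ± 224 and 1167 FPKM, Fau at 969 ± 263 and 913 FPKM, and Rack1, a scaffold protein on the small subunit, at 300 ± 61.7 and 284 FPKM (means, SD of the MWA group, n = 5 each). None of the 3 had a limma P below 0.5.

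Summed over genes, the large subunit mRNAs came to 21446, 18409, 16881, 15186 and 26363 FPKM in MWA replicates 1 to 5 and to 16546, 18703, 19700, 19349 and 19095 FPKM in MWA+2DG replicates 1 to 5. MWA replicate 5 was the highest and MWA replicate 4 the lowest of all mice, with the MWA+2DG mice between them. The small subunit sums were 16545, 14053, 11754, 10827 and 18221 FPKM in MWA and 12636, 14255, 14111, 13283 and 13035 FPKM in MWA+2DG. As a percent of the summed FPKM of a library, the large subunit took 5.87 ± 1.01% in MWA and 5.88 ± 0.457% in MWA+2DG, and the small subunit 4.27 ± 0.749% and 4.23 ± 0.226% (SD, n = 5 each). The group means of these percents differed by less than the SD within either group. The ratio of large to small subunit sums was 1.296, 1.31, 1.44, 1.40 and 1.45 in MWA and 1.31, 1.31, 1.40, 1.46 and 1.46 in MWA+2DG. In both groups this ratio of the member genes was lower in replicates 1 and 2 than in replicates 3 to 5. The sums leave out other genes that hold a member's whole coding sequence unchanged, which 20 members have. For 14 of them the share of FPKM in such copies also separated these replicate sets, as described further on. The part of the copies in the ratio was not tested.

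**Figure D2:**
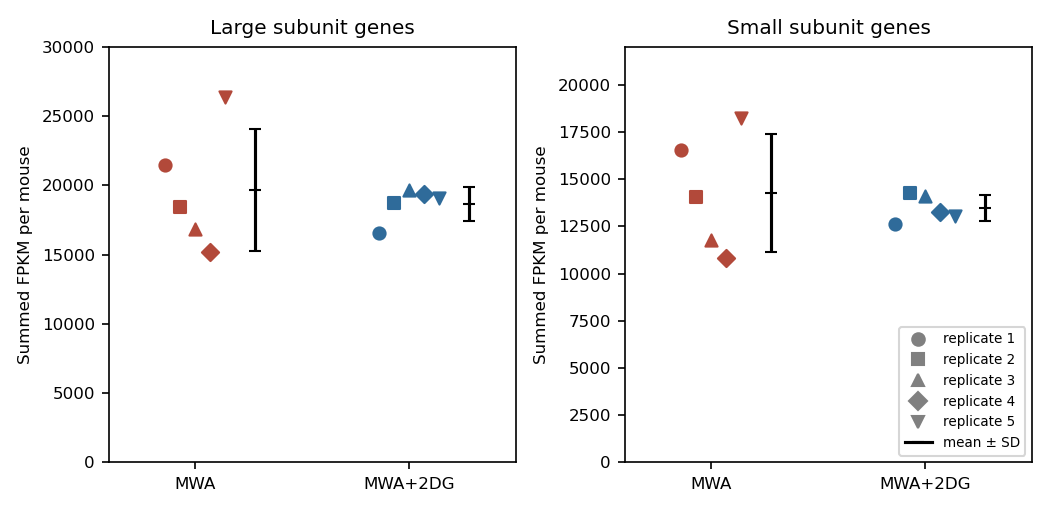
Summed FPKM of the large (left) and small (right) subunit genes in each mouse, with the symbol giving the replicate number and the bar the group mean with SD (n = 5). The MWA mice range from 15186 to 26363 FPKM for the large subunit and from 10827 to 18221 FPKM for the small subunit, and all MWA+2DG mice lie inside these ranges.

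The ribosomal protein mRNAs were spread more widely among the MWA mice than among the MWA+2DG mice. The SD of log2(FPKM + 1) was larger among MWA than among MWA+2DG mice for 75 of 77 members, all 46 of the large and 29 of the 31 of the small subunit, while 60.3% of all tested genes had the larger SD in MWA. The median SD was 0.31 in MWA and 0.12 in MWA+2DG for the members, and 0.18 and 0.15 for all tested genes. Among 351 tested non-member genes that averaged 100 FPKM or more, the SD was larger in MWA for 212 (60.4%). In the gene lists described further on, it was larger in MWA for 95.4% of other short, abundant mRNAs and 84.6% of mitochondrial ribosomal protein genes. The share was 77.4% for ribosome biogenesis, 73.8% for translation factors and 68.2% for the mTORC1 list, so a wider spread in MWA was not particular to the members. Rps2 and Rps26 were the exceptions among the members. The pseudogenes named after Rps2 averaged 1014 FPKM, against 50.1 FPKM for the gene, and that of Rps26 10.5 FPKM, against 288 FPKM. Rps2 was at 41.0, 46.4, 43.8, 47.1 and 72.6 FPKM in MWA and at 27.9, 37.3, 60.1, 63.5 and 61.8 FPKM in MWA+2DG. The members moved together within a mouse, so the 75 genes are not independent observations, and the difference in spread between the groups was not tested. Without MWA replicate 5 the count was 62 of 77 (80.5%, against 44.6% of all genes). It was 64 after rescaling to 1000000 (83.1%, against 67.0% of all genes) and 57 after quantile normalization (74.0%, against 60.5%).

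**Figure D3:**
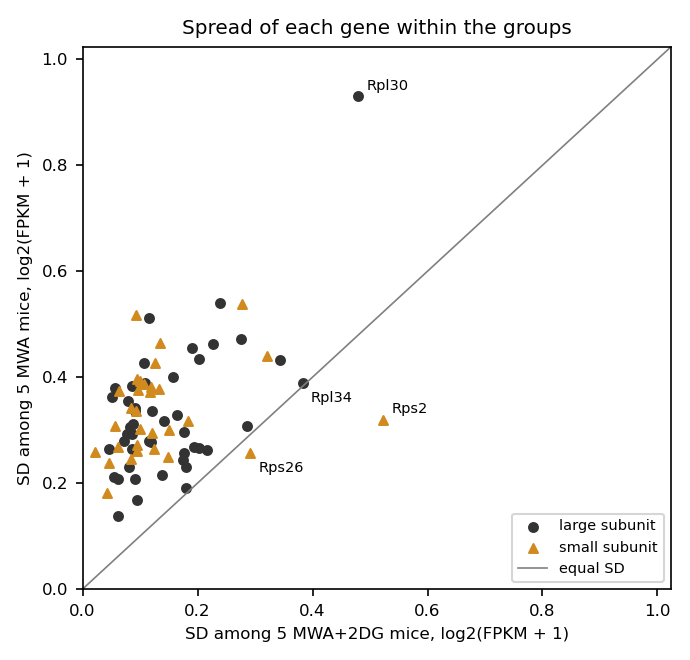
SD of log2(FPKM + 1) among the 5 MWA mice (vertical) against that among the 5 MWA+2DG mice (horizontal) for each of the 77 tested members, circles for the large and triangles for the small subunit, with the line of equal SD. 75 points lie above the line, and Rps2 and Rps26 lie below it.

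The same few mice held the extremes of nearly every gene. MWA replicate 5 had the highest value of all 10 mice in 63 of 77 members and MWA replicate 1 in the other 14. The lowest value was that of MWA replicate 4 in 54 members, of MWA+2DG replicate 1 in 13, of MWA replicate 3 in 9 and of MWA+2DG replicate 4 in 1. Of the 46 tested large subunit genes, 44 were above their own median over mice in MWA replicate 5 and 43 in MWA replicate 1, against 2 and 1 in MWA replicates 3 and 4. In MWA+2DG replicate 1 the count was 3, in MWA replicate 2 it was 19, and in the other MWA+2DG mice it was 23 to 39. MWA replicate 5 also had the highest summed FPKM of all libraries (359984). It had the lowest percent of FPKM in mitochondrially encoded genes (4.67%, against 5.41% to 6.98% in the other mice). Its sum of the 7 plasma cell markers was the highest (821 FPKM), against 320 FPKM in the lowest MWA mouse and 244 to 505 FPKM in MWA+2DG mice. The part of these in the result was not tested.

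**Figure D4:**
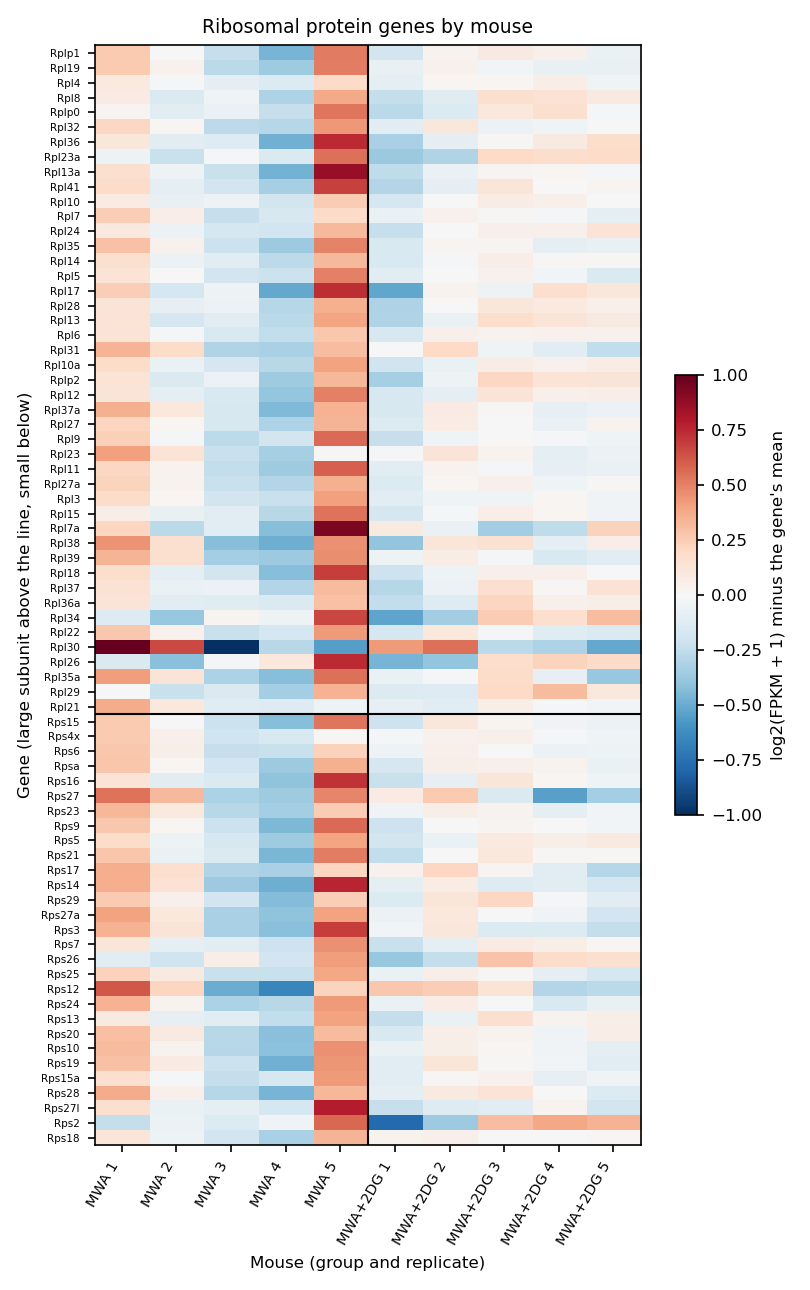
Log2(FPKM + 1) of 74 tested members (rows, by subunit and mean level) in the 10 mice (columns), as the difference from the mean of the gene over mice, with colors saturating at 1 and -1. The columns of MWA replicates 1 and 5 are red and those of MWA replicates 3 and 4 blue for most genes. The column of MWA+2DG replicate 1 is blue for most large subunit genes, the other MWA+2DG columns are paler, and Rpl30, Rps2 and Rpl34 go their own way.

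Over the 10 mice, the correlation of a member with the mean of the other members had a median of 0.92, and 47 of 77 members were above 0.9, against 1.58% of all tested genes for the correlation with the members' mean. This is a description over 10 mice. The summed FPKM of their libraries ran from 312143 to 359984, and the labels do not state whether all were prepared together. Rps9 (0.99), Rplp1 (0.99) and Rpl27a (0.99) were among those that followed the mean most closely. Rpl30 (0.16), Rps2 (0.45), Rpl26 (0.46), Rpl21 (0.49) and Rpl34 (0.50) followed it least. For Rpl30, Rps2, Rpl21 and Rpl34 the pseudogenes named after them averaged 231, 1014, 252 and 187 FPKM, more than the 28.9, 50.1, 1.89 and 161 FPKM of the genes. For Rpl26 it was the other way, with 0.256 against 18.4 FPKM. The part of the pseudogenes in these correlations was not tested. Rpl30 was at 64.1, 41.2, 12.4, 21.1 and 17.3 FPKM in MWA and at 35.0, 38.3, 21.2, 20.7 and 17.8 FPKM in MWA+2DG, with all replicates 1 and 2 above all replicates 3 to 5.

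That separation by replicate number, which is not a group of the study, held for few members. Rpl26 and Rpl34 were higher in all replicates 3 to 5 (2.04% of all tested genes were), with means of 13.8 against 21.5 FPKM and of 124 against 187 FPKM, and Rpl30 was lower (7.80% of all tested genes were), with 44.7 against 18.4 FPKM. The values of the other 43 large and all 31 small subunit genes overlapped. Within replicates 1 and 2 the median log2 difference between MWA+2DG and MWA was -0.18 for the large and -0.19 for the small subunit, and within replicates 3 to 5 it was 0.0365 and 0.0408. The 2 sets thus had medians of opposite sign, and the difference between them was not tested.

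Per length, the levels of the members covered a wide range. Of the 48 large subunit genes, 41 had a mean of at least 100 FPKM, with a median of 313 FPKM, and of the 31 small subunit genes 28 did, with a median of 378 FPKM. After Rplp1 (mean 2309 FPKM) came Rps15 (1556 FPKM) and Rpl19 (1064 FPKM), and Rpl4 was at 1006 FPKM. The ranges of Rplp1 and Rpl19 over mice did not overlap. Neighbors in the order of levels within a subunit had overlapping ranges over mice in 42 of 47 pairs of the large and 30 of 30 pairs of the small subunit. The lowest genes were Rpl3l (0.0604 FPKM), a paralog of Rpl3 that is typical of heart and skeletal muscle, and Rpl39l (0.276 FPKM), a paralog of Rpl39 that is typical of testis. Rpl3, by contrast, was at 255 FPKM and Rpl39 at 213 FPKM. Rpl21 (1.89 FPKM), Rpl29 (4.24 FPKM), Rpl35a (15.5 FPKM), Rpl26 (18.4 FPKM), Rpl30 (28.9 FPKM), Rps18 (43.7 FPKM) and Rps2 (50.1 FPKM) were also listed far below most genes of their subunit, although each protein is a standard part of the ribosome. The paralogs outside the naming rule were at 53.0 FPKM (Rpl22l1), 32.8 FPKM (Rpl7l1), 117 FPKM (Rpl36al) and 2.84 FPKM (Rps4l) in the mean of the MWA mice.

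Many members have near-identical copies elsewhere in the genome, and these also held FPKM. The annotation names 238 pseudogenes after 56 of the members, and their FPKM summed to 7233 to 11353 in a mouse. For 12 members the pseudogenes named after them summed to more than the gene. The pseudogenes of Rpl35a were at 1050 FPKM on average, those of Rps2 at 1014 FPKM, those of Rpl21 at 252 FPKM, those of Rpl30 at 231 FPKM and those of Rps18 at 192 FPKM. For Rpl26 and Rpl29 the pseudogenes named after them were at 0.256 and 0.362 FPKM, below the genes themselves. Copies under other names are not in these sums, so a low sum does not show that copies held little FPKM. The pseudogenes named after Rpl12 were at 0.511 FPKM, but its unchanged copy Gm10275 was at 258 FPKM. The levels of genes with such copies are therefore uncertain, since a table of FPKM does not show how shared reads were assigned.

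In 20 members, 13 of the large and 7 of the small subunit, the whole coding sequence occurs unchanged in another annotated gene (GENCODE, GRCm38). The copies took 78.7% of the joint FPKM for Rps12, 47.1% for Rpl36a, 45.5% for Rpl12, 43.4% for Rpl38 and 33.1% for Rps27. For 14 of the 20 members this percent separated replicates 1 and 2 from replicates 3 to 5 of both groups without overlap, 9 with the higher and 5 with the lower percent in replicates 3 to 5. For Rpl36a the copy Rpl36a-ps2 took 63.3% to 64.6% in replicates 1 and 2 and 24.7% to 28.3% in replicates 3 to 5. For Rps12 the copy took 63.7% to 71.4% and 79.1% to 85.0%.

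Rps27, the member with the lowest fold change, has such a copy. Its coding sequence (252 bases, 84 codons, in the gene at chr3:90212522-90213651, minus strand, GRCm38) is identical at every base to that of Rps27rt (chr9:114982366-114982739, minus strand), with 0 differences, and is shown once because it stands for both genes.
Rps27 and Rps27rt: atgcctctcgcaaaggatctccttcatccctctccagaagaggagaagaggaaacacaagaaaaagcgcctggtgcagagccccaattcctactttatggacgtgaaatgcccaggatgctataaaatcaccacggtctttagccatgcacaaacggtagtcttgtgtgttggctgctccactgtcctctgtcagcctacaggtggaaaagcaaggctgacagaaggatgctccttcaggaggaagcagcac
Rps27 was listed at 1028, 884, 566, 550 and 990 FPKM in MWA replicates 1 to 5 and at 746, 843, 637, 483 and 557 FPKM in MWA+2DG replicates 1 to 5. Rps27rt was listed at 114, 118, 291, 300 and 581 FPKM in MWA and at 118, 104, 567, 781 and 626 FPKM in MWA+2DG. All replicates 1 and 2 of Rps27rt lay below all replicates 3 to 5. The sum of both genes was 1142, 1002, 857, 850 and 1571 FPKM in MWA and 864, 947, 1205, 1264 and 1183 FPKM in MWA+2DG. On this sum the log2 fold change was 0.034 (SE 0.18; limma, adjusted p = 0.996), against -0.27 for Rps27 alone. For Rps12 the log2 fold change moved from 0.035 to -0.10 (SE 0.18) with its copy added, and for Rpl38 from -0.061 to 0.0086 (SE 0.17).

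**Figure D5:**
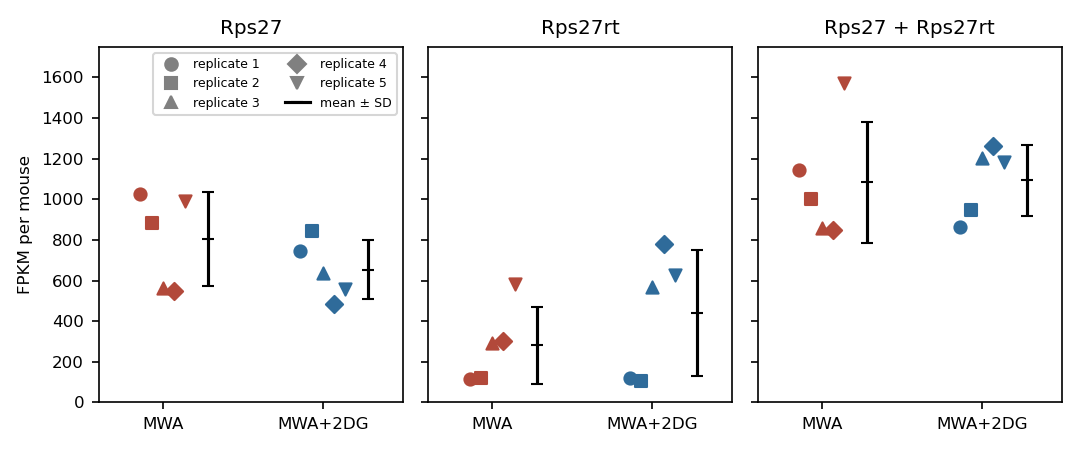
FPKM of Rps27 (left), Rps27rt (middle) and their sum (right) in each mouse, with the symbol giving the replicate number and the bar the group mean with SD (n = 5). Rps27 alone is lower on average in MWA+2DG (653 against 804 FPKM), Rps27rt is higher in replicates 3 to 5 than in 1 and 2 of both groups, and the sums have means of 1084 and 1093 FPKM.

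Genes that serve the ribosome in other ways were read from 5 lists, and 0 of their genes passed the rule of the study in either direction. Of 62 tested genes of ribosome biogenesis, which make rRNA and assemble the subunits, 1 had an unadjusted limma P below 0.05, Pinx1, a nucleolar inhibitor of telomerase, at 8.19 ± 0.686 FPKM in MWA and 7.01 ± 0.644 FPKM in MWA+2DG (SD, n = 5; log2 fold change -0.20, SE 0.080, adjusted p = 0.995). The median of this list was 0.011, and from -0.0060 to 0.033 with 1 mouse left out, with Mdn1, an ATPase of large subunit maturation, at the top (0.24, SE 0.18) beside Nvl (0.14, SE 0.087), and Pes1 at -0.15 (SE 0.091). Of 42 translation factors 0 had a P below 0.05, and the median was -0.031. Eif3h (-0.14, SE 0.11) and Eif5a (-0.13, SE 0.097) were the lowest, and Eif3j1 (0.090, SE 0.069) and Eef2 (0.075, SE 0.080), the elongation factor that moves the ribosome along the mRNA, the highest. After rescaling to 1000000 the median of the translation factors was 0.032.

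Of 44 tested genes of mTORC1 and of the control of ribosomal protein mRNAs, 0 had a P below 0.05, and the median log2 fold change was 0.023. It was 0.086, with 36 of 44 above 0, after rescaling to 1000000 and -0.0035, with 20 of 44 above 0, without MWA replicate 4. Ddit4, an inhibitor of mTORC1 that is induced by stress, was at 75.3 ± 37.9 FPKM in MWA and 56.8 ± 17.9 FPKM in MWA+2DG (SD, n = 5), a log2 fold change of -0.25 (SE 0.40). Mycn was at -0.25 (SE 0.12), Sesn2, a leucine sensor upstream of mTORC1, at 0.21 (SE 0.11), and Eif4ebp3, a repressor of cap-dependent translation, at 0.20 (SE 0.25). Of 78 genes for mitochondrial ribosomal proteins, the parts of the separate ribosome within mitochondria, 2 had a P below 0.05, Mrpl16 (-0.21, SE 0.085) and Mrps22 (-0.18, SE 0.074), both with an adjusted p of 0.995 in limma. The list median was -0.11, with 69 of 78 below 0, -0.049 after rescaling to 1000000 and -0.041 without MWA replicate 5. Mrpl53 (-0.37, SE 0.18) and Mrpl41 (-0.29, SE 0.15) were the lowest, and Mrps9 (0.076, SE 0.065) and Mrpl47 (0.049, SE 0.067) the highest.

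The fifth list held 65 other short, abundant mRNAs, such as those of respiratory chain subunits, that have no part in the ribosome. Its median log2 fold change was -0.12, with 58 of 65 below 0. The median was -0.061, with 16 of 65 above 0, after rescaling to 1000000 and -0.052, with 20 of 65 above 0, without MWA replicate 5. The SD was larger among MWA than MWA+2DG mice in 95.4% of its genes. The correlation with the mean of the ribosomal protein genes over the 10 mice had a median of 0.78 in this list. It was 0.69 for mitochondrial ribosomal proteins, 0.38 for translation factors, 0.033 for ribosome biogenesis and 0.025 for the mTORC1 list. Uqcr10 (-0.35, SE 0.23) and Sec61g (-0.31, SE 0.16) had the lowest log2 fold changes of the short mRNAs, and S100a10 (0.082, SE 0.21) and B2m (0.060, SE 0.13) the highest.

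Across the 11024 other tested protein-coding genes with a transcript length, the median correlation with the ribosomal protein mean moved with length. It was 0.27 for 1039 genes under 750 bases, 0.30 for 2661 genes of 750 to under 1500 bases, -0.070 for 4003 genes of 1500 to under 3000 bases and -0.47 for 3321 genes of 3000 bases or more. The members themselves had a median length of 696.5 bases and a median correlation of 0.92. In the same order of length the median log2 fold change was -0.031, -0.026, 0.0095 and 0.047, and it was -0.048 for the members. These are values across genes, which are not independent replicates. The part of transcript length in the spread and the fold changes of the members was not tested. The non-member genes most like the members' mean over the 10 mice were Gm7432 (0.99), Gm8210 (0.98), Rps2-ps13 (0.98) and Gm7143 (0.98), all annotated as processed pseudogenes, and Pfdn5 (0.98), a subunit of the prefoldin chaperone.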

How the data were processed

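Nodes were profiled by stranded, poly(A)-selected paired-end RNA-seq with molecular identifiers. The submitters' processing notes name cutadapt 1.9, HISAT2 2.0.4, UMI-tools, StringTie 1.3.4d and mm9. The methods of the study name fastp in place of cutadapt and ballgown for the final values. The deposited FPKM values are per gene identifier. FPKM is relative to all mapped reads of a library and holds no counts, so depth was not known. Of 33643 identifiers, 33541 matched a symbol, and 57 shared symbols were summed.

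limma 3.58.1 in R 4.3.3 compared 5 MWA+2DG with 5 MWA mice on log2(FPKM + 1), with a mean of at least 1 FPKM and Benjamini-Hochberg adjustment over 13334 genes. The rule of the study (P below 0.05, log2 fold change over 0.25 in size) served as the call. Single genes were also tested by exact permutation. In simulated data each gene was drawn independently, and 200 of 13334 were changed by a log2 of 1. At an adjusted p below 0.05 in limma, 174 of the 200 were recovered, with 7 false calls. This does not measure the rule of the study, changes near 0.25 or genes that move together. Genes were named by rule: in each subunit the 4 highest and 4 lowest fold changes, the 3 smallest P and the 3 highest and lowest levels, listed role genes and paralogs, and the 2 highest and 2 lowest of each list. Mrpl16 and Mrps22 and the copies and pseudogenes were named after their values were seen. A few single genes are not reported here, though counts and sums include them. Members and lists were chosen with earlier results of these data known. Sequences came from GENCODE M21 and RefSeq (GRCm38), another build than mm9, so no coordinates were shared with the files. Alternatives were other pseudocounts, filters, scalings, a trend, a block, copies summed and each mouse left out.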

Additional observations from a re-analysis of the deposited data

Results flagged for a closer look

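Among the 79 ribosomal protein genes, 8 had a mouse far from the other 4 of its group, by a gap to the nearest mouse of more than 0.71 of the range of the group. In 4 of them it was MWA replicate 5 above the rest: Rplp0 was at 1133 FPKM against 665 to 799 FPKM in the other MWA mice, Rps27l at 86.7 against 44.0 to 56.3 FPKM, Rps2 at 72.6 against 41.0 to 47.1 FPKM, and Rpl23a at 1086 against 634 to 730 FPKM. In 3 of them it was MWA+2DG replicate 1 below the rest: Rpl9 was at 242 FPKM against 275 to 283 FPKM in the other MWA+2DG mice, Rpl6 at 285 against 326 to 330 FPKM, and Rps9 at 501 against 566 to 587 FPKM. Rpl39l, which was not tested, was at 0.632 FPKM in MWA replicate 1 and at 0 to 0.173 FPKM in the other MWA mice. These are 8 of 158 values of a gene in a group (5.06%), and chance passes about 1 in 20.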

How the results depend on the processing

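FPKM holds no counts, so depth and counting error are unknown, and 5 mice a group limit the precision. In every alternative run, 0 members passed the rule of the study, and 0 had non-overlapping groups wherever this was counted. The median log2 fold change was above 0 in 6 of 26 alternatives for either subunit, between -0.18 (within replicates 1 and 2) and 0.060 for the large and between -0.19 (within replicates 1 and 2) and 0.053 for the small one. The calls over all genes, 127 higher and 249 lower, moved to 69 and 161 with a filter of 5 FPKM, to 328 and 159 after rescaling to 1000000, and to 283 and 154 when ribosomal protein genes were left out of that total. With 1 mouse left out they ran from 80 (without MWA replicate 5) to 222 (without MWA+2DG replicate 5) higher, and the calls after adjustment from 0 to 1 (without MWA replicate 2). The ribosome biogenesis median was 0.074 and 0.071 under the 2 rescalings. The cause was not tested.

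Same-numbered mice of both groups had correlations of their deviations of 0.33, 0.50, 0.11, 0.033 and 0.15 for replicates 1 to 5, so the numbers were not taken to pair the mice, and 3 of 10 samples correlated best with their own number. With the replicate number as a block, 164 genes were higher and 285 lower, and no call on a member changed. The medians of -0.051 and -0.048 cannot change with this block, since each number holds 1 mouse of each group.

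None of the single genes was called in any fit, and many log2 fold changes near 0 turned sign. After rescaling to 1000000 they were 0.0501 for Rpl10, 0.0339 for Rpl10a, 0.00256 for Rpl38, 0.0497 for Rpl4, 0.0324 for Rplp1, 0.0155 for Rps19, 0.0222 for Rps6 and 0.0266 for Rpsa. With ribosomal protein genes left out of the total they were 0.0494 for Rpl10, 0.0332 for Rpl10a, 0.00187 for Rpl38, 0.0491 for Rpl4, 0.0318 for Rplp1, 0.0147 for Rps19, 0.0216 for Rps6 and 0.0260 for Rpsa. Quantile normalization gave 0.0439 for Rpl10, 0.0334 for Rpl10a, 0.00401 for Rpl11, 0.0337 for Rpl38, 0.0544 for Rpl4, 0.0152 for Rplp0, 0.0195 for Rplp1, 0.0277 for Rps19, 0.0523 for Rps6 and 0.0395 for Rpsa. Adding pseudogenes to the parent gene gave 0.00839 for Rpl38 and -0.10 for Rps12, and adding unchanged copies, an alternative chosen after seeing the data, gave 0.00863, -0.10 and, for Rps27, 0.0343. With 1 mouse left out the lowest and highest values were -0.0615 and 0.0482 for Rpl10, -0.10 and 0.0671 for Rpl10a, -0.20 and 0.0387 for Rpl11, -0.15 and 0.00810 for Rpl3, -0.19 and 0.0461 for Rpl38, -0.0505 and 0.0324 for Rpl4, -0.16 and 0.0185 for Rpl5, -0.26 and 0.0785 for Rpl7a, -0.0623 and 0.11 for Rpl8, -0.13 and 0.0612 for Rplp0, -0.15 and 0.0937 for Rplp1 and -0.0489 and 0.12 for Rplp2. In the small subunit they were -0.12 and 0.20 for Rps12, -0.31 and 0.00396 for Rps14, -0.0332 and 0.13 for Rps18, -0.17 and 0.0564 for Rps19, -0.19 and 0.0143 for Rps27a, -0.0792 and 0.0948 for Rps29, -0.0373 and 0.0770 for Rps4x, -0.10 and 0.0199 for Rps6 and -0.13 and 0.0462 for Rpsa. The sign held with any 1 mouse left out for Rpl22, Rpl29, Rpl35a, Rpl9, Rps27, Rps27l and Rps3.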
